A study of Homo sapiens with 6 samples.

Results

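The aminoacyl-tRNA synthetases and their scaffold proteins were followed in the human colorectal carcinoma cell line HCT116, with and without extra SNORA28, an H/ACA box snoRNA (small nucleolar RNA). The 37 genes were chosen by name from the 60612 genes in each deposited table. They are 19 genes for cytosolic synthetases, AIMP1 and AIMP2, which hold several of these enzymes together, and 16 genes for mitochondrial synthetases. Each symbol matched 1 gene, and all 37 passed the filter of a mean of at least 1 FPKM (fragments scaled for transcript length and for the total mapped) over the 6 libraries.

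In this study 3 libraries were made from cells given the negative control lentivirus (LV-NC) and 3 from cells given a lentivirus carrying SNORA28 (LV-SNORA28), all taken 72 h after infection. The methods of the study name the GV235 vector for the overexpressing virus and puromycin selection for the overexpressing cells. The LV-NC cells were virus-treated rather than untouched. The labels do not say whether the 3 libraries of a group came from separate cultures, so the p-values measure the spread between these libraries, which may be technical.

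SNORA28 had LV-NC values of 0.92, 0 and 0.64 FPKM and LV-SNORA28 values of 15.01, 13.66 and 15.2 FPKM. The libraries were poly(A)-selected, and whether these values come from the mature snoRNA or from a longer transcript was not tested. Of the epithelial markers, EPCAM, KRT8, KRT18 and KRT19 were at 96.86 FPKM or more in every library, CDH1 and CDX2 ran from 9.65 to 14.38 and from 3.47 to 4.33 FPKM, and VIL1 was at most 0.04 FPKM and CDX1 was listed at 0. PTPRC, CD3E, PECAM1 and COL3A1, markers of other cell types, were at most 0.08 FPKM, and COL1A1, CD68, ACTA2 and DES lay between 0.95 and 4.46 FPKM, of which ACTA2 was higher in LV-SNORA28 (limma adjusted p 0.0273). Genes of the mitochondrial genome took from 42.7% to 47.72% of all FPKM under LV-NC and from 35.88% to 38.26% in LV-SNORA28, and the part of this shift in the results below was not tested beyond the scaling to the nuclear sum given with them. Across the 12076 genes tested, limma called 822 higher and 254 lower in LV-SNORA28, and 451 and 375 after quantile normalization, with a median log2 fold change of 0.09 over all genes tested.

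Each synthetase joins an amino acid to its matching tRNA at the cost of ATP, which sets the fidelity with which the genetic code is read. Human cells use separate nuclear genes for most cytosolic and mitochondrial enzymes, whereas GARS1 and KARS1 each encode both forms and mitochondrial glutaminyl-tRNA is made by amidation instead of by an enzyme of its own. The enzymes fall into classes I and II by the fold of their catalytic domain. Several cytosolic enzymes sit with AIMP1 and AIMP2 in the multi-synthetase complex, and many cytosolic synthetase genes are known targets of ATF4, the transcription factor of the amino acid response.

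Cytosolic synthetases had the higher FPKM values as a group. Averaged over the 6 libraries, the cytosolic genes lay between 6.63 and 66.99 FPKM, with a median of 35.1 FPKM. The mitochondrial genes lay between 1.99 and 39.6 FPKM, with a median of 4.48 FPKM. TARS1 (threonine), IARS1 (isoleucine), SARS1 (serine) and NARS1 (asparagine) led the order, with means of 66.99, 66.78, 64.32 and 60.31 FPKM. HARS1 and LARS1, the histidine and leucine enzymes, were the lowest cytosolic genes, with means of 6.63 and 7.62 FPKM. Their annotated exons cover 14155 and 20639 bases. FPKM compared between genes depends on the length used for each, which is not known here. IARS2 was the most abundant mitochondrial gene, with a mean of 39.6 FPKM, above many of the cytosolic enzymes. The next mitochondrial gene, RARS2, had a mean of 12.02 FPKM.

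**Figure D1:**
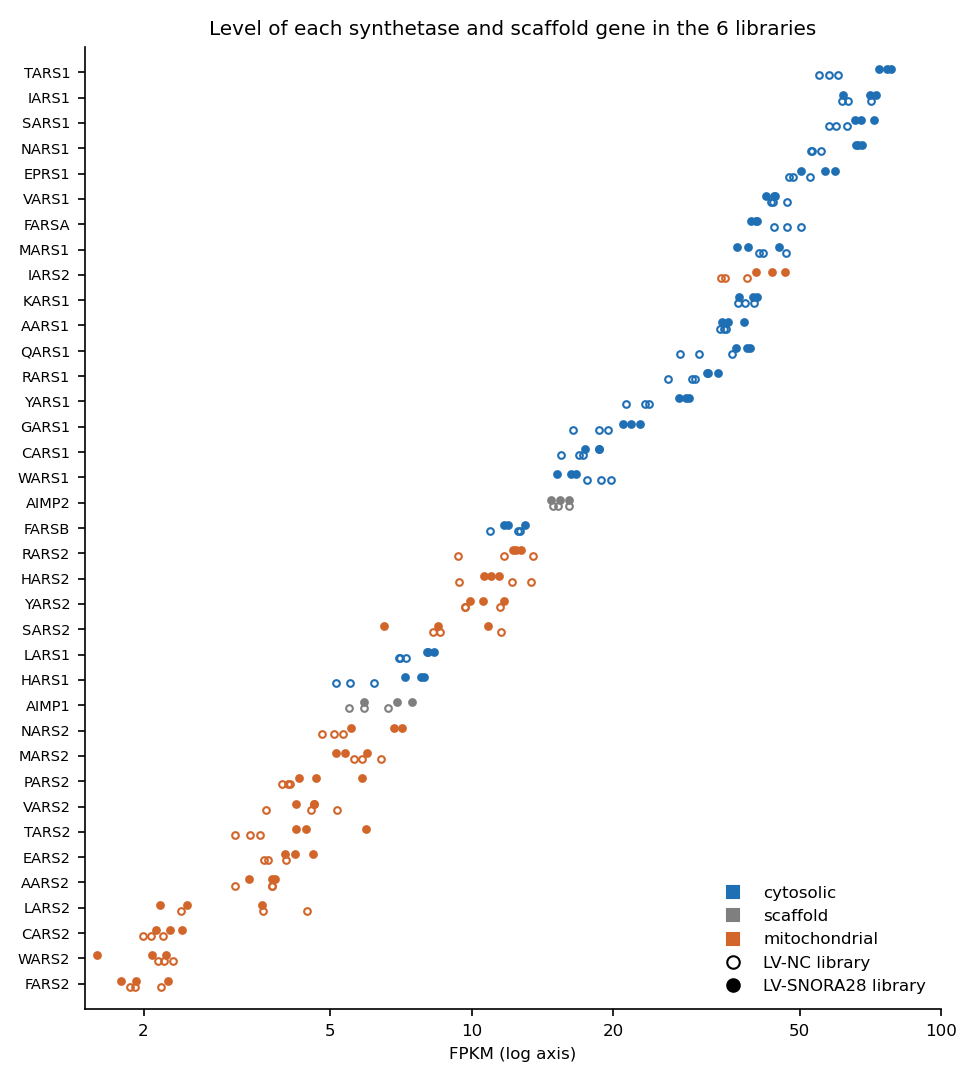
FPKM of the 37 genes on a log axis, 1 row per gene ordered by the mean of the 6 libraries, with open points for LV-NC and filled points for LV-SNORA28 and colours for cytosolic, scaffold and mitochondrial genes. Cytosolic genes fill the upper rows, except HARS1 and LARS1, and IARS2 and the scaffold AIMP2 stand among them.

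Setting LV-SNORA28 against LV-NC asks which of these genes changed with SNORA28. TARS1, HARS1, NARS1 and YARS1, all cytosolic, were higher in LV-SNORA28, by 1.24 to 1.36 times. Thus 4 of the 21 cytosolic and scaffold genes were called higher at an adjusted p below 0.05 in limma, where 6.81% of all genes tested were. Among the 16 mitochondrial genes 0 were called in either direction, and 3 of them, IARS2, NARS2 and TARS2, had an unadjusted p below 0.05 in limma, a smaller share than the 3385 of 12076 over all genes tested. Of the 37 genes 0 were called lower, against 2.10% of all genes tested, and FARSA and WARS1 were lower at an unadjusted p below 0.05 in limma. The median log2 fold change was 0.15 over the cytosolic and scaffold genes and 0.05 over the mitochondrial genes, on either side of the 0.09 of all genes tested, and quantile normalization turned the mitochondrial median to -0.0507 with 0.0564 for the cytosolic and scaffold genes and -0.00127 for all genes. Before that normalization 12 of the 21 cytosolic and scaffold genes and 6 of the 16 mitochondrial genes lay above the all-gene median of 0.09.

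**Figure D2:**
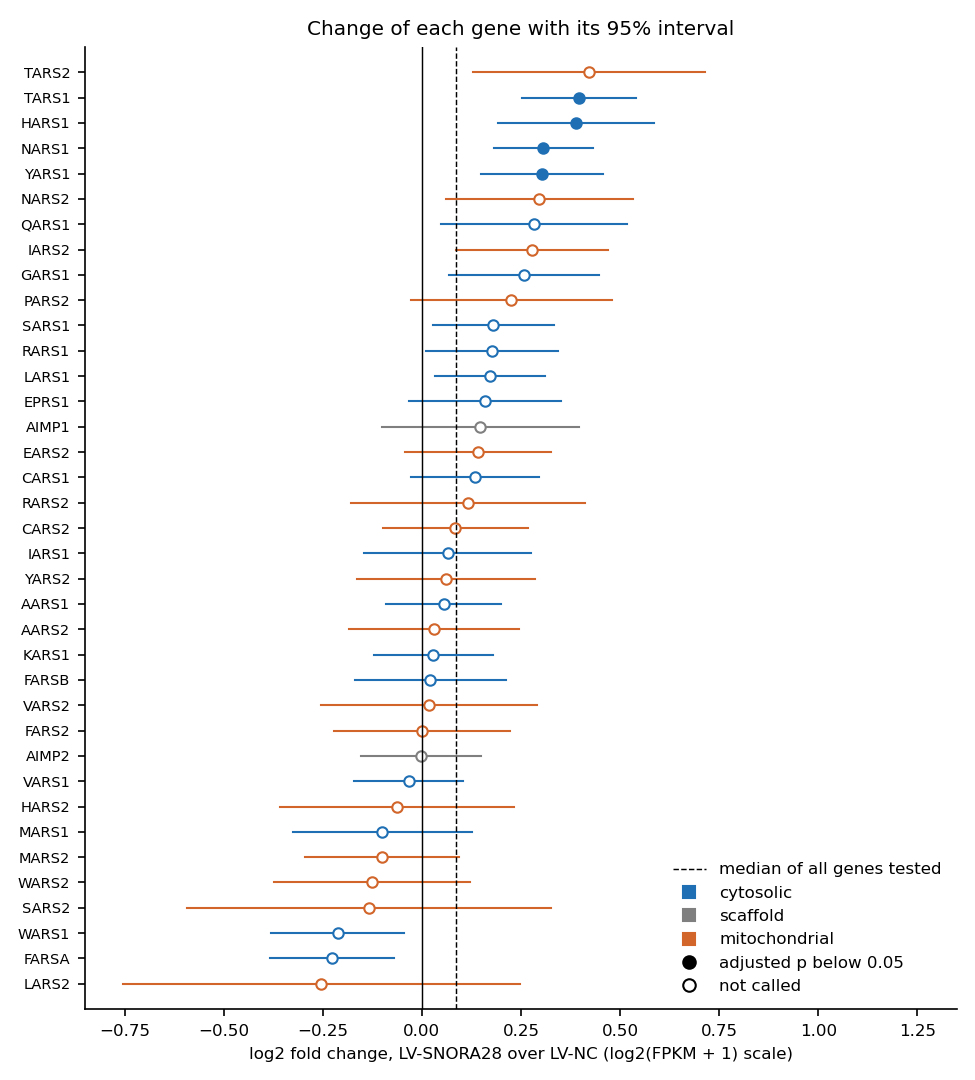
Log2 fold change of LV-SNORA28 over LV-NC on the log2(FPKM + 1) scale for the 37 genes, with 95% intervals from limma, filled points for an adjusted p below 0.05 and a dashed line at the median of all genes tested (0.09). The filled points are TARS1, HARS1, NARS1 and YARS1, and the highest point, TARS2, is open, with an interval from 0.13 to 0.72.

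TARS1 (ENSG00000113407; GRCh38 chromosome 5, 33440696 to 33468091, plus strand) charges threonine. It stood at 54.94, 60.47 and 57.74 FPKM under LV-NC, compared with 73.81, 76.67 and 78.32 FPKM under LV-SNORA28. Every LV-SNORA28 library lay above every LV-NC library, by a gap larger than the range within either group. In limma the log2 fold change came to 0.40 (SE 0.06) and the adjusted p to 0.0156, and the means differed by 1.32 times.

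NARS1 (ENSG00000134440; GRCh38 chromosome 18, 57600656 to 57622213, minus strand), the asparagine enzyme, measured 53.02, 52.92 and 55.56 FPKM across the LV-NC libraries against 66.44, 68 and 65.95 FPKM across the LV-SNORA28 libraries. The libraries of each group lay close together and the groups were well apart. In limma the log2 fold change came to 0.31 (SE 0.05) and the adjusted p to 0.0212.

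HARS1 (ENSG00000170445; GRCh38 chromosome 5, 140673035 to 140691537, minus strand), which charges histidine, had LV-NC values of 6.19, 5.15 and 5.5 FPKM and LV-SNORA28 values of 7.8, 7.92 and 7.21 FPKM. Its groups did not overlap. In limma the log2 fold change came to 0.39 (SE 0.08) and the adjusted p to 0.0374. Among the exons of HARS1, 1090 bases lie opposite exons of WDR55, which stood at 6.65, 6.21 and 6.31 FPKM under LV-NC, compared with 7, 6.26 and 6.61 FPKM under LV-SNORA28. The libraries keep strand, but whether it was used in quantification is not given in the sources used here.

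YARS1 (ENSG00000134684; GRCh38 chromosome 1, 32775237 to 32818031, minus strand), the tyrosine enzyme, measured 21.35, 23.38 and 23.89 FPKM across the LV-NC libraries against 27.62, 29.04 and 28.6 FPKM across the LV-SNORA28 libraries. All 3 LV-SNORA28 libraries were the higher ones. In limma the log2 fold change came to 0.30 (SE 0.06) and the adjusted p to 0.0378. In HARS1 and YARS1 the call is close to the threshold. HARS1 had an adjusted p of 0.0776 after quantile normalization and of 0.0557 after scaling to the nuclear FPKM sum, and YARS1 of 0.0725 and 0.0429, all in limma.

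TARS1 was still called in limma when any LV-NC library or LV-SNORA28 replicate 1 was left out, NARS1 was still called without LV-NC replicate 3 and HARS1 without LV-NC replicate 1. In the other fits with 1 library left out these calls were lost, with limma adjusted p-values up to 0.0681 for TARS1, 0.0902 for NARS1 and 0.126 for HARS1, and YARS1 was called in 0 of the 6 (0.0673 to 0.130). With LV-SNORA28 replicate 2 or 3 left out, 0 of the 21 genes were called, and fewer genes overall passed in those fits (278 and 303, against 1076).

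**Figure D3:**
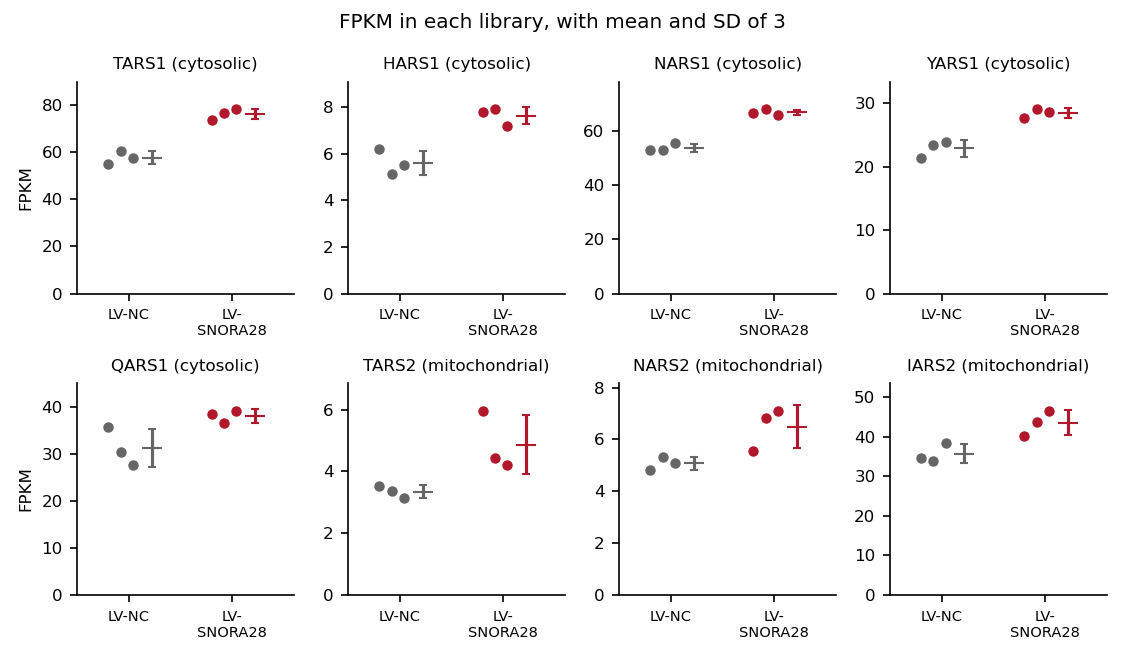
FPKM in each library (points) with the mean and SD of 3 libraries (bars) for the called genes TARS1, HARS1, NARS1 and YARS1, and for QARS1, TARS2, NARS2 and IARS2, on axes that start at 0. In each of the 8 genes, chosen by their calls or the size of their changes, the LV-SNORA28 libraries lie above the LV-NC libraries. Of all 37 genes 14 separate in this way, against 27.0% of all genes tested. The other direction holds for 2 of the 37 (FARSA and WARS1, not shown), against 8.16%.

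The other cytosolic genes differed less between the groups and were not called. Of the 19 cytosolic genes, 10 had all LV-SNORA28 libraries above all LV-NC libraries, where 27.0% of all genes tested did, and 2 had them all below, against 8.16%. Besides the 4 called genes, the 10 were CARS1, GARS1, LARS1, QARS1, RARS1 and SARS1, with log2 fold changes from 0.13 to 0.28 and limma adjusted p-values from 0.0938 to 0.255. QARS1, the glutamine enzyme, had LV-NC values of 35.81, 30.52 and 27.73 FPKM and LV-SNORA28 values of 38.62, 36.57 and 39.28 FPKM. LV-NC replicate 1 was the high library of its group. The adjusted p of QARS1 was 0.122 in limma, and 0.0486 without that library.

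FARSA and WARS1 were the cytosolic genes with LV-SNORA28 below LV-NC in all libraries. FARSA, the catalytic alpha subunit of the phenylalanine enzyme, stood at 44.13, 50.37 and 46.96 FPKM under LV-NC, compared with 40.45, 40.54 and 39.31 FPKM under LV-SNORA28. In limma its log2 fold change came to -0.23 (SE 0.07) and the adjusted p to 0.0801, and it was called lower after quantile normalization with an adjusted p of 0.0446 in limma. FARSB, which encodes the beta subunit of the same enzyme, had means of 12.04 ± 0.958 (SD, n = 3) and 12.2 ± 0.679 FPKM (SD, n = 3), and overlapping groups. The subunits act as a tetramer with equal numbers of each, and their FPKM differed in every library. The annotated exons cover 2434 bases in FARSA and 6761 in FARSB, and the lengths used for FPKM are not known here.

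WARS1, the tryptophan enzyme, which interferon-gamma is known to induce, measured 17.61, 19.8 and 18.91 FPKM across the LV-NC libraries against 15.18, 16.28 and 16.71 FPKM across the LV-SNORA28 libraries. In limma its log2 fold change came to -0.21 (SE 0.07) and the adjusted p to 0.108. Among interferon-gamma response genes listed beside it, IFIT1, TAP1 and IRF1 had log2 fold changes of 0.43, 0.14 and 0.04 at limma adjusted p 0.0746, 0.374 and 0.830. GBP1, CXCL10 and IDO1 were at 0.01 FPKM or less.

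Within the multi-synthetase complex, 0 of the 7 listed synthetases (EPRS1, IARS1, KARS1, LARS1, MARS1, QARS1 and RARS1) were called in limma, and 3 had an unadjusted p below 0.05. Outside it, 4 of 12 cytosolic genes were called higher. Over all genes tested 6.81% were called higher, and 3385 of 12076 had an unadjusted p below 0.05. The difference between the genes inside and outside the complex was not tested. The medians of the log2 fold changes were nonetheless alike, 0.16 in both groups. The bifunctional EPRS1, which charges glutamate and proline, had 49.5 ± 2.75 FPKM (SD, n = 3) under LV-NC against 55.5 ± 4.57 FPKM (SD, n = 3) under LV-SNORA28. MARS1, the methionine enzyme, had a log2 fold change of -0.10, with a 95% interval from -0.33 to 0.13. The scaffolds AIMP1 and AIMP2 had log2 fold changes of 0.15 (95% interval from -0.10 to 0.40) and -0.00100 (from -0.15 to 0.15). In AIMP2 29.1% of exonic bases lie opposite exons of EIF2AK1, which had between 38.55 and 45.38 FPKM.

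By catalytic class, 1 of 9 cytosolic class I genes (YARS1) and 3 of 9 class II genes (HARS1, NARS1 and TARS1) were called higher, leaving EPRS1, which holds both, aside. In each class 5 genes had non-overlapping groups with LV-SNORA28 higher and 1 with it lower. The shares of all genes tested were 6.81% called higher, 27.0% without overlap and higher, and 8.16% without overlap and lower, and the difference between the classes was not tested.

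Among the mitochondrial enzymes, TARS2, NARS2 and IARS2 had the largest log2 fold changes in size, and none of these 3 was called. TARS2 (ENSG00000143374; GRCh38 chromosome 1, 150487414 to 150507602, plus strand) had LV-NC values of 3.54, 3.37 and 3.14 FPKM and LV-SNORA28 values of 5.97, 4.43 and 4.22 FPKM. Its means differed by 1.46 times, more than those of any called member. LV-SNORA28 replicate 1 stood above the other libraries of its group, and the log2 fold change of 0.42 (SE 0.12) had an adjusted p of 0.0819 in limma.

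NARS2 stood at 4.81, 5.33 and 5.09 FPKM under LV-NC, compared with 5.54, 6.82 and 7.11 FPKM under LV-SNORA28, with the lowest LV-SNORA28 library just above the highest LV-NC library. In limma its log2 fold change came to 0.30 (SE 0.10) and the adjusted p to 0.111. IARS2 measured 34.69, 33.97 and 38.54 FPKM across the LV-NC libraries against 40.28, 43.71 and 46.62 FPKM across the LV-SNORA28 libraries. The groups did not overlap, and the log2 fold change of 0.28 (SE 0.08) had an adjusted p of 0.0801 in limma.

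PARS2, the mitochondrial proline enzyme, was the fourth gene of the 16 whose groups did not overlap, with a log2 fold change of 0.23 and a limma adjusted p of 0.222. That is 4 of 16 with LV-SNORA28 higher, close to the 27.0% of all genes tested, and 0 of 16 with it lower. LARS2 had the lowest log2 fold change, -0.25, but its libraries ran from 2.4 to 4.46 FPKM in LV-NC and from 2.17 to 3.57 FPKM in LV-SNORA28, and its 95% interval from -0.75 to 0.25 was the widest. AARS2, FARS2 and VARS2 had log2 fold changes of 0.03, -2.71e-06 and 0.02, with 95% intervals that lay between -0.25 and 0.29. The remaining genes, CARS2, EARS2, HARS2, MARS2, RARS2, SARS2, WARS2 and YARS2, had log2 fold changes from -0.13 to 0.14 and overlapping groups. The median SE of the log2 fold change was 0.10 for mitochondrial and 0.07 for cytosolic and scaffold genes. Of the exonic bases of VARS2 63.0%, and of those of SARS2 48.2%, are shared with another annotated gene on the same strand, so the values of these 2 genes are uncertain.

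Cytosolic and mitochondrial enzymes were then set against each other for each amino acid, as the log2 ratio of FPKM + 1 within a library, where any scaling common to a library nearly drops out. There were 16 pairs, with EPRS1 set against both EARS2 and PARS2, and FARSA and FARSB averaged against FARS2. The exact two-sided permutation test of 3 against 3 libraries cannot give a p below 0.1, so no pair could pass a threshold of 0.05. In 13 pairs the groups overlapped, in 2 the LV-SNORA28 libraries were all higher and in 1 they were all lower. A pair without a difference separates fully in either direction with probability 0.1. Whether the count over the 16 pairs exceeds this was not tested, and the p-values were not adjusted over the pairs.

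For histidine, the log2 ratio of HARS1 to HARS2 was -1.0, -1.10 and -0.68 in LV-NC and -0.40, -0.43 and -0.60 in LV-SNORA28. HARS2, the mitochondrial member, thus had the higher FPKM in all 6 libraries, whereas the cytosolic member had the higher mean in the other 15 pairs. The annotated exons cover 14155 bases in HARS1 and 3719 in HARS2, and the lengths used for FPKM are not known here. HARS2 also shares 152 exonic bases on the same strand with ZMAT2, which had a mean of 45.7 FPKM. The ratio of HARS1 to HARS2 differed by 0.45 between the groups (exact permutation p 0.1). These genes are neighbours in opposite orientation, their RefSeq start windows share 184 bases, and HARS2 measured 13.38, 12.19 and 9.4 FPKM across the LV-NC libraries against 10.64, 11 and 11.42 FPKM across the LV-SNORA28 libraries. The difference was 0.36 to 0.57 with 1 library left out.

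For tyrosine, the log2 ratio of YARS1 to YARS2 was 1.07, 1.19 and 0.99 in LV-NC and 1.303, 1.457 and 1.216 in LV-SNORA28, a difference of 0.24 (exact permutation p 0.1). For isoleucine, the ratio of IARS1 to IARS2 was 0.81, 0.88 and 0.86 in LV-NC and 0.60, 0.68 and 0.63 in LV-SNORA28, a difference of -0.21 (exact permutation p 0.1). In this pair it was the mitochondrial gene that was higher in LV-SNORA28, by 0.28 on the log2 scale without being called, against 0.06 for IARS1.

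For threonine and asparagine the members of a pair had similar fold changes on the log2(FPKM + 1) scale, although TARS2 and NARS2 were not called. TARS1 and TARS2 had log2 fold changes of 0.40 and 0.42, and their ratio differed by -0.03 between the groups. NARS1 and NARS2 had 0.31 and 0.30, and their ratio differed by 0.01. The exact permutation p was 1 for both ratios. With a pseudocount of 0.1 in place of 1, TARS1 and TARS2 had log2 fold changes of 0.40 and 0.51. The ratio of TARS1 to TARS2 then differed by -0.11 between the groups, and that of NARS1 to NARS2 by -0.03. A ratio for leucine that differed by 0.43 had overlapping groups (exact permutation p 0.2).

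**Figure D4:**
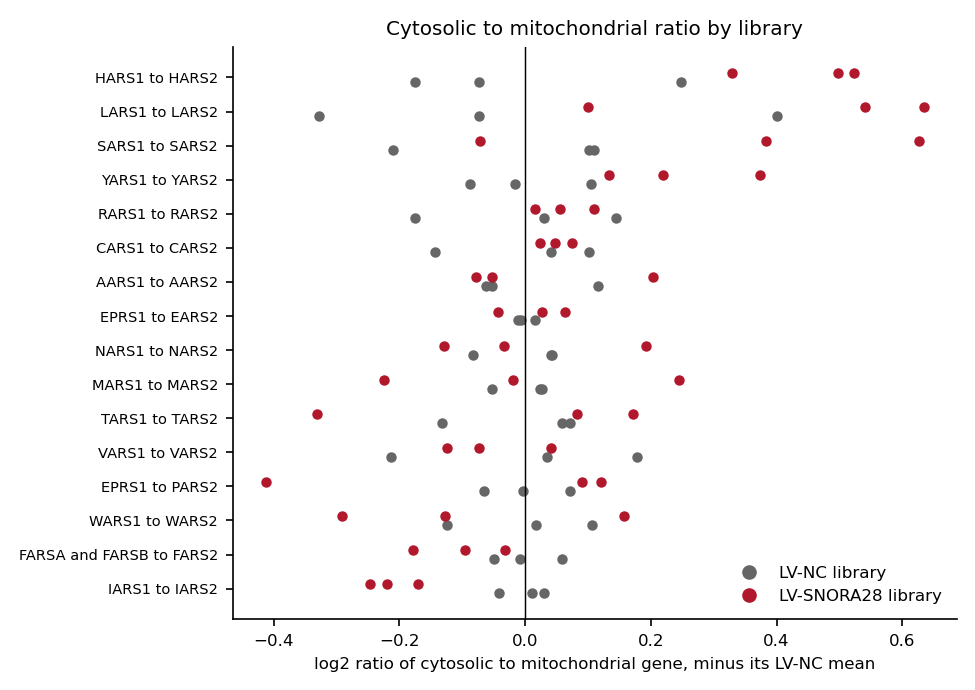
Log2 ratio of the cytosolic to the mitochondrial gene in each library, minus the LV-NC mean of that pair, for 16 pairs ordered by the difference between groups (grey LV-NC, red LV-SNORA28). The groups separate for HARS1 to HARS2 and YARS1 to YARS2 (LV-SNORA28 higher) and for IARS1 to IARS2 (LV-SNORA28 lower), and overlap in the other 13 pairs.

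The transcripts of each compartment were also summed. The 19 cytosolic genes added to 655 ± 18.0 FPKM (SD, n = 3) under LV-NC against 717 ± 15.2 FPKM (SD, n = 3) under LV-SNORA28. The 16 mitochondrial genes added to 119 ± 3.10 FPKM (SD, n = 3) and 130 ± 5.95 FPKM (SD, n = 3). Both sums were higher in every LV-SNORA28 library than in any LV-NC library. The ratio of the sums was 5.515, 5.515 and 5.533 in LV-NC and 5.66, 5.619 and 5.342 in LV-SNORA28, with overlapping groups. All 37 genes took 0.411% ± 0.00674 (SD, n = 3) of the nuclear FPKM sum under LV-NC, against 0.440% ± 0.0106 (SD, n = 3) under LV-SNORA28. The nuclear sum leaves out the mitochondrially encoded transcripts, and the groups did not overlap. Over all genes tested the median log2 fold change was 0.09, and 0.06 after scaling to the nuclear sum. The part of this general shift in the sums was not tested. The sums are dominated by the abundant genes, and for bulk RNA a change in every cell and a change in some cells cannot be told apart.

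The partners of tRNA charging were compared next. Of 19 genes listed for this, 18 passed the filter and 0 were called in limma, 3 at an unadjusted p below 0.05. Over all genes tested 6.81% were called higher and 3385 of 12076 had an unadjusted p below 0.05. In 7 of the 18 the LV-SNORA28 libraries were all higher, and in 0 all lower, against 27.0% and 8.16% of all genes tested. EEF1E1, the remaining scaffold of the multi-synthetase complex, was closest to the threshold. It had LV-NC values of 13.26, 14.15 and 14.31 FPKM and LV-SNORA28 values of 16.6, 17.31 and 19.9 FPKM, a log2 fold change of 0.34 (SE 0.08) at a limma adjusted p of 0.0517. SEPSECS, which makes selenocysteinyl-tRNA, had a log2 fold change of 0.29 and a limma adjusted p of 0.133. GATB, a subunit of the amidotransferase that makes mitochondrial glutaminyl-tRNA, had 0.28 and 0.112. PPA2, a mitochondrial pyrophosphatase, had 0.24 and 0.296, with overlapping groups.

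The amino acid response was examined because ATF4 binds many synthetase promoters. Of 27 genes listed for it, 24 passed the filter, 6 were called higher in limma and 0 lower, against 6.81% and 2.10% of all genes tested, and the median log2 fold change was 0.26, against 0.09 over all genes. The 6 were CTH, TRIB3, MTHFD2, ASNS, SLC38A2 and DDIT4. MTHFD2, an enzyme of mitochondrial folate metabolism, stood at 65.6, 68.44 and 74.53 FPKM under LV-NC, compared with 99.87, 106.15 and 105.11 FPKM under LV-SNORA28, a log2 fold change of 0.57 (SE 0.07) at a limma adjusted p of 0.00800. TRIB3, a pseudokinase that restrains this response, measured 21.3, 26.67 and 23.54 FPKM across the LV-NC libraries against 36.13, 39.89 and 35.76 FPKM across the LV-SNORA28 libraries, a log2 fold change of 0.63 at a limma adjusted p of 0.0154. CTH, which makes cysteine from cystathionine, had LV-NC values of 3.68, 2.46 and 3.52 FPKM and LV-SNORA28 values of 5.89, 5.22 and 5.71 FPKM, a log2 fold change of 0.66 at a limma adjusted p of 0.0304.

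ASNS, the asparagine synthetase that supplies the amino acid NARS1 uses, stood at 49.04, 50.69 and 54.45 FPKM under LV-NC, compared with 61.27, 72.75 and 68.73 FPKM under LV-SNORA28. In limma its log2 fold change came to 0.39 (SE 0.08) and the adjusted p to 0.0372. MTHFD2 was called with any 1 library left out, and the other 5 calls were all lost without LV-SNORA28 replicate 2 or 3 (limma adjusted p from 0.0521 for TRIB3 to 0.139 for SLC38A2). Without the trend in limma, DDIT4 (adjusted p 0.0546) and SLC38A2 (0.0596) were not called, and the others were. After quantile normalization ASNS (limma adjusted p 0.0528) and DDIT4 (0.0866) were not called, whereas CTH (0.0356) was. The transcript of ATF4 itself was not called, with 42.3 ± 2.55 FPKM (SD, n = 3) under LV-NC against 39.0 ± 2.70 FPKM (SD, n = 3) under LV-SNORA28 and an adjusted p of 0.383 in limma. ATF4 is known to be controlled largely at translation, which these data do not measure. DDIT3, another stress factor, had a log2 fold change of -0.03 at a limma adjusted p of 0.952.

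Promoter sequences of RefSeq (GRCh38.p14), from 250 bases before to 50 bases after each start site, were searched for TGATGNAA, the core of the element bound by ATF4 with C/EBP factors, on both strands. They held 32 of the 37 genes, and LARS1, VARS1, YARS1, AARS2 and VARS2 were not searched. The motif occurred in the windows of 7 of 16 cytosolic genes, of 0 of 2 scaffold genes and of 1 of 14 mitochondrial genes, against 3.62% of all 35116 windows and 4.46% of all genes with one. The 30 bases around each match are shown so that the shared core can be seen, 5′ to 3′ on the strand of the gene, with the motif in capitals. Where it lies on the other strand the capitals begin with TT.

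TARS1 (chr5:33440956-33440985, plus strand): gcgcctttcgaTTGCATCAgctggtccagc
NARS1 (chr18:57621804-57621833, minus strand): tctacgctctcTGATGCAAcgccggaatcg
GARS1 (chr7:30594834-30594863, plus strand): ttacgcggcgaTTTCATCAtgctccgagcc
CARS1 (chr11:3057407-3057436, minus strand): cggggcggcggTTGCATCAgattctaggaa
IARS1 (chr9:92293692-92293721, minus strand): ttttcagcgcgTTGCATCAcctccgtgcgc
MARS1 (chr12:57488053-57488082, plus strand): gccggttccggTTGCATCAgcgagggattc
AARS1 (chr16:70289675-70289704, minus strand): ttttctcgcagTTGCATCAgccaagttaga
YARS2 (chr12:32756076-32756105, minus strand): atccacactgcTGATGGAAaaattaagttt
ASNS (chr7:97872458-97872487, minus strand): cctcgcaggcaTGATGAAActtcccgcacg

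In TARS1, NARS1, CARS1, IARS1, MARS1 and AARS1 the 8 bases were the same, TGATGCAA on either strand. The match began at position 3 from the start site in TARS1, 15 in NARS1, -2 in CARS1, -4 in MARS1, -13 in IARS1 and -33 in GARS1, so these 6 lay near the start, whereas those of AARS1 and YARS2 began at -187 and -197. ASNS, a textbook target of ATF4, is shown beside them, with its match at -68. Of the 27 genes listed for the amino acid response, 20 were searched and 5 held the motif, ASNS among them.

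Changes were compared between genes with and without the motif. The 7 cytosolic genes with it had a median log2 fold change of 0.13, from -0.10 (MARS1) to 0.40 (TARS1), and 2 of them were called higher. The 9 searched without it had a median of 0.16, from -0.23 (FARSA) to 0.39 (HARS1), and 1 was called higher. Over all genes tested 6.81% were called higher, and the difference between these sets was not tested. YARS1, also called higher, is in neither set because it was not searched. A match is a run of letters and not a shown binding site.

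Copies of the members in the genome were checked as well. Of 16 annotated pseudogenes named after the members, the highest was AIMP1P2, with at most 0.5 FPKM in any library. The exons of MARS1 overlap those of DDIT3 on the other strand over 355 bases, and DDIT3 ranged from 9.89 to 19.35 FPKM in LV-NC and from 13.64 to 15.86 FPKM in LV-SNORA28.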

How the data were processed

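Poly(A)-selected, dUTP-stranded libraries of HCT116 cells (LV-NC and LV-SNORA28, n = 3 each, grouped by title) were sequenced as paired ends. The authors deposited FPKM values per Ensembl gene, 1 table per library. Per the labels, the submitters' processing notes name cutadapt 1.9, HISAT2 2.2.1, StringTie 2.1.6, DESeq2, edgeR and hg38, with no role or annotation given. Symbols were found for 60401 of 60612 identifiers, and positions came from GENCODE release 44 (GRCh38). Counts and mapped totals were not given. In short single-exon genes 39.2% to 44.1% of low values lay within 0.1 of a whole multiple of a step. The step was chosen in each library to give the highest share. The 20% expected by chance is for 1 fixed step, so it is too low a reference for a chosen step. Reads were not recovered and depth is unknown.

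Values were taken as log2(FPKM + 1), those averaging 1 FPKM or more were kept, and limma 3.58.1 in R 4.3.3 (lmFit, eBayes with trend) was fitted to all of them, with two-sided p-values adjusted by the Benjamini-Hochberg method over all genes tested. Fold changes on this scale understate those of low genes. Ratios within pairs were tested by exact two-sided permutation in SciPy 1.17.1. The fit was tested on simulated data and repeated with quantile normalization, scaling to the nuclear FPKM sum, a pseudocount of 0.1, no filter, a minimum of 5 FPKM, no trend, a replicate block and each library left out. The members and the lists of partner, ATF4 and interferon genes were chosen with earlier results of these data known. Per-library values are given for members called, for the 3 largest absolute log2 fold changes per compartment, for members that crossed the threshold with 1 library left out, and for some genes of each list, of which the called genes are named and the 4 largest changes are given with their fold changes, except for items not reported here. FARSA, WARS1, FARSB, HARS2, LARS2, ATF4 and the overlapping genes were added after their values were seen.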

Additional observations from a re-analysis of the deposited data

How the results depend on the processing

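Depth is unknown, so the precision of low genes rests on the spread between 3 libraries. The 4 cytosolic genes called higher became 2 after quantile normalization and 2 without a filter, where more genes were tested. They became 0 when the thresholds used in the study (fold change over 1.5, unadjusted p under 0.05) were put on the limma fit. The test of the study itself was not rerun, so counts under its thresholds are not those of the study. With 1 library left out, 0 to 3 of the 21 cytosolic and scaffold genes were called higher. The 3 genes, without LV-NC replicate 1, were HARS1, TARS1 and QARS1, and QARS1 was not among the 4. Among mitochondrial genes limma called 0 in each of these fits, against 3 at an unadjusted p below 0.05 in the fit reported. Over all genes, the 1076 calls became 397 without a filter and 458 with the thresholds of the study put on the limma fit. They lay between 278 and 629 when 1 library was left out. Quantile normalization moved the median log2 fold change of the cytosolic and scaffold genes from 0.147 to 0.0564, that of the mitochondrial genes from 0.0457 to -0.0507 and that of all genes to -0.00127.

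Libraries with the same replicate number did not deviate together (correlations across genes -0.0441, 0.0914 and 0.00983), so the numbers were not taken as pairs. With the replicate number as a block, 1 cytosolic gene (TARS1) and 510 genes in all were called.

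Genes near 0 changed sign without passing the threshold, and the cause was not tested. After quantile normalization the log2 fold change was -0.00437 for AARS1, -0.0691 for FARSB, -0.0223 for IARS1, -0.0250 for KARS1, -0.0684 for AARS2, -0.00159 for CARS2, -0.0775 for VARS2 and -0.0330 for YARS2, and after nuclear scaling -0.00346 for FARSB and -0.00395 for VARS2. With 1 library left out it ranged from -0.0409 to 0.0562 for FARSB, -0.0543 to 0.00112 for VARS1, -0.0309 to 0.0288 for AIMP2, -0.0373 to 0.0773 for AARS2, -0.0631 to 0.0492 for FARS2, -0.197 to 0.0369 for HARS2, -0.0146 to 0.229 for RARS2, -0.296 to 0.0329 for SARS2 and -0.0917 to 0.111 for VARS2.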
